A study of Mus musculus with 12 samples.

Results

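PMN-MDSCs were compared with M-MDSCs sorted from tumors of vehicle-treated mice, to describe what separates the 2 subsets of myeloid-derived suppressor cells without drug. Of the 12 RNA-seq libraries of the series, 4 entered this comparison, 2 labelled M-MDSCs and 2 labelled PMN-MDSCs. The mice were wild-type female C57BL/6J, 6 to 8 weeks old, that carried Hepa 1-6 tumors, a mouse hepatoma line transplanted into the liver. Vehicle was given intraperitoneally each day for 10 days from day 10 after inoculation, and mice with more than 20% MDSCs in the blood were used, with harvest on day 21. This schedule is stated for the M-MDSC groups, and the PMN-MDSC libraries were taken to come from the same experiment because their labels give the same treatment, genotype and tissue. Both subsets were isolated by FACS, M-MDSCs as CD11b+Ly-6ChiLy-6G- cells and PMN-MDSCs as CD11b+Ly-6CintLy-6G+ cells. The other 8 libraries, from mice given 5 mg/kg MS-275 or CXD101, inhibitors of class I histone deacetylases, on the same schedule, were used only to see which subset differences were also present under treatment. Nothing in the labels says whether a library came from 1 mouse or from a pool, or whether an M-MDSC and a PMN-MDSC library came from the same mouse, so the p-values measure the spread between these libraries.

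MDSCs are immature or activated myeloid cells that expand in tumor-bearing hosts and restrain T and NK cells. PMN-MDSCs share their surface phenotype with neutrophils and M-MDSCs share theirs with inflammatory monocytes, which leave the bone marrow through the chemokine receptor CCR2. Neutrophils make their granule proteins in order: the primary granule proteases and myeloperoxidase are transcribed in promyelocytes, the secondary and tertiary granule proteins later, when cells stop dividing, and chemokine receptors such as CXCR2 last.

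The deposited values were FPKM, that is, fragments normalized by transcript length and library size, for 24346 gene symbols. A gene was tested if it reached 1 FPKM in 2 or more of the 4 libraries, which left 10764 genes. Differences are given as PMN-MDSC minus M-MDSC on the log2(FPKM + 1) scale, which understates the change of genes with low values, and folds are ratios of mean FPKM. Levels written as a pair against a pair are the FPKM of the 2 M-MDSC libraries against those of the 2 PMN-MDSC libraries. A gene was called at a Benjamini-Hochberg adjusted p-value under 0.05 in limma and a fold change above 1.5 on the log2 scale. Depth read from the steps between low FPKM values came to 9.41 and 9.06 M reads in the M-MDSC libraries and 8.07 and 7.77 M in the PMN-MDSC libraries. At that depth, 1 FPKM of a transcript of 2000 bp stood for 15.5 to 18.8 reads. Replicate libraries correlated across tested genes with r of 0.993 (M-MDSC) and 0.988 (PMN-MDSC), and libraries of different subsets with r of 0.908 to 0.924. Genes are not independent replicates, so these values are descriptive.

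The subsets differed in a large part of their transcriptome. In PMN-MDSCs, 1971 genes (18.3% of those tested) were called higher and 1939 (18%) lower, 36.3% in either direction, and 7182 genes had an unadjusted p under 0.05. The median difference over all tested genes was -0.02, with a median SE of 0.11. Increases reached further than decreases, since 211 genes were higher with a log2 difference above 2 and 16 were lower by as much. FPKM is relative to the library, and S100a8 and S100a9 alone took 10.2 and 13.7% of the summed FPKM in PMN-MDSCs against 1.95 and 1.78% in M-MDSCs. When all libraries were rescaled to the same summed FPKM, the median of all tested genes moved to -0.19 and the split became 1550 higher and 2904 lower, that is 34.8% higher of all called in place of 50.4%. Without S100a8 and S100a9 in the rescaling, 1992 were higher and 2187 lower. In bulk libraries such as these, fewer cells of a type and less RNA per cell cannot be told apart. Of the tested genes, 284 passed the filter only through the PMN-MDSC libraries and 170 only through the M-MDSC libraries. The counts of the gene lists below stand beside the background shares of all tested genes, 18.3% called higher and 18% lower. In these lists, at most 5 members of a list passed only through the PMN-MDSC libraries. Among the 9940 genes that reached 1 FPKM in all 4 libraries, 1660 were higher and 1774 lower.

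**Figure D1:**
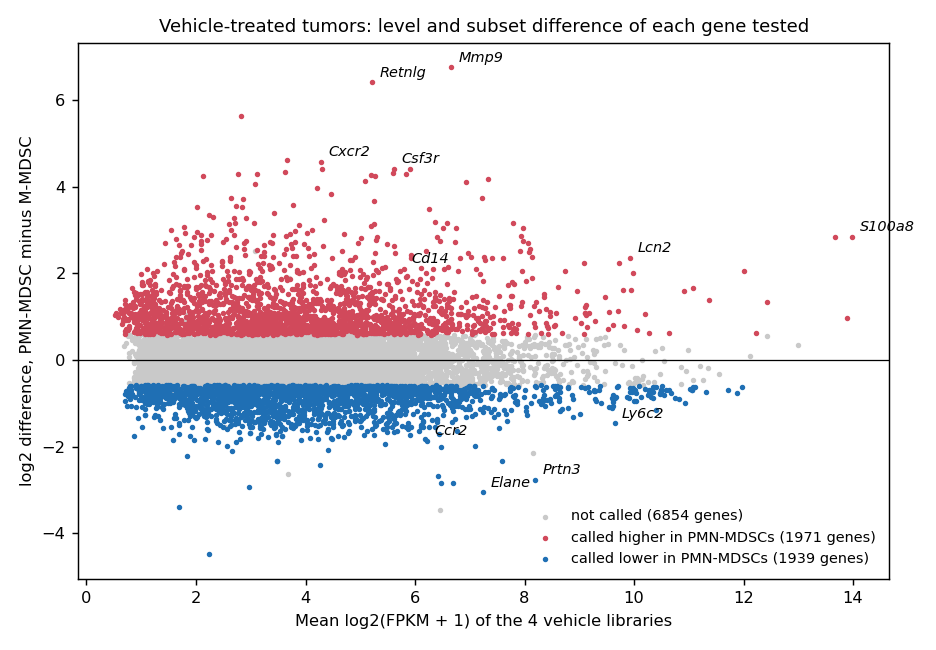
Each point is 1 of the 10764 tested genes, with the mean log2(FPKM + 1) of the 4 vehicle libraries on the x axis and the log2 difference of PMN-MDSCs minus M-MDSCs on the y axis. Red points (1971) were called higher and blue points (1939) lower; Mmp9 lies highest at 6.77, and of the blue genes with a label, Elane and Prtn3 lie lowest.

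The marker values of the 2 subsets did not overlap. The share of all tested genes without overlap is not given here, so this and later statements of no overlap only describe the values. Cxcr2, the neutrophil receptor for CXC chemokines (chr1:74153989-74161246, mm10), was at 2.81 and 3.11 FPKM in M-MDSCs and at 80.8 and 109 in PMN-MDSCs. Ccr2, the receptor that marks inflammatory monocytes (chr9:124101950-124113557), was at 147 and 137 in M-MDSCs and 40.7 and 35.7 in PMN-MDSCs. The subsets did not overlap for either gene, and Ccr2 was still well above 0 in the PMN-MDSC libraries. The difference was 4.58 ± 0.14 (SE, n = 2 per group) for Cxcr2, with an adjusted p of 1.23e-06 in limma, and -1.87 ± 0.087 for Ccr2, with an adjusted p of 5.32e-06.

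S100a8 and S100a9, the subunits of calprotectin and abundant proteins of the neutrophil cytosol, were the most abundant of these transcripts in either subset. S100a8 (chr3:90668978-90670035) was at 6434 and 5693 FPKM in M-MDSCs and 35864 and 52947 in PMN-MDSCs. S100a9 (chr3:90692632-90695721), its neighbor on the same chromosome, was at 4915 and 4869 against 31056 and 39303. Each was therefore high in M-MDSCs too, with a ratio of means of 7.32 for S100a8 and 7.19 for S100a9. The limma differences were 2.85 ± 0.18 (adjusted p = 1.63e-05) and 2.84 ± 0.12 (adjusted p = 4.08e-06). Of the 15 S100 genes listed, 9 were tested, 4 were higher, 2 were lower, and the median was -0.08. S100a6 and S100a11, calcium-binding proteins found in many cell types, were also higher (2.02 and 1.66), and S100a10 and S100a4 were lower (-0.999 and -0.89).

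The transcripts of the sort antigens were read as a check of the labels. Itgam, which encodes CD11b, was at 285 and 281 FPKM in M-MDSCs and 825 and 895 in PMN-MDSCs. Ly6c2, the main Ly-6C gene of monocytes, was at 1360.2 and 1306 against 511 and 455, so it was lower in the cells sorted as Ly-6Cint. Ly6c1 was at 6.26 and 5.36 against 0.396 and 1.93. Ly6c1 and Ly6c2 are near-identical copies on chromosome 15 and can share reads. Itgam was higher by 1.598 (adjusted p = 4.34e-06 in limma) and Ly6c2 lower (-1.46, adjusted p = 9.39e-06). Ly6g was not analysed here, so the Ly-6G part of the gates was not checked.

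**Figure D2:**
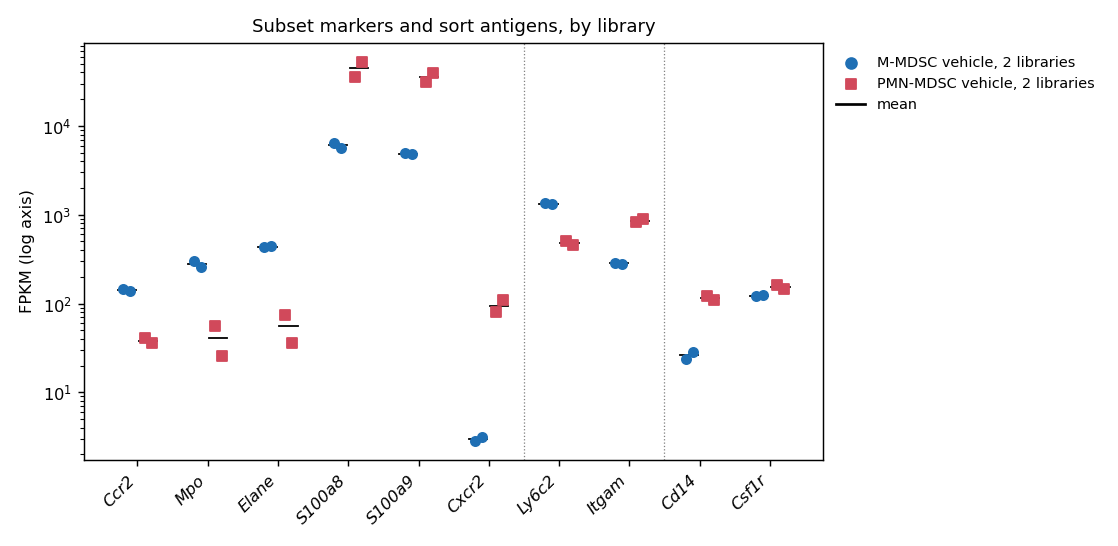
FPKM on a log axis for 6 subset markers, the sort antigens Ly6c2 and Itgam, and the monocyte genes Cd14 and Csf1r; blue circles are the 2 M-MDSC and red squares the 2 PMN-MDSC vehicle libraries, and black lines are means. Ccr2, Mpo, Elane and Ly6c2 lie higher in both M-MDSC libraries, while Cxcr2, S100a8, S100a9, Itgam and Cd14 lie higher in both PMN-MDSC libraries.

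Mpo and Elane, proteins of primary neutrophil granules, went the other way from the other neutrophil markers. Elane, neutrophil elastase (chr10:79886247-79888215), was at 436 and 439.9 FPKM in M-MDSCs and 74.7 and 35.6 in PMN-MDSCs. Mpo, myeloperoxidase (chr11:87793581-87804413, with exons that overlap the antisense gene Gm11505), was at 298 and 257 against 55.3 and 25.9. Prtn3, proteinase 3 (chr10:79874476-79883174, partly antisense to Plppr3), was at 751 and 774 against 141 and 88.03, and whether the authors' quantification used strand is not given in the sources used here. In each case both M-MDSC libraries were above both PMN-MDSC libraries, and the second PMN-MDSC library was lower than the first. Elane had the largest decrease of any protein-coding gene named here, -3.06 ± 0.28 (adjusted p = 8.27e-05 in limma), followed by Mpo (-2.83 ± 0.29, adjusted p = 0.000137) and Prtn3 (-2.76 ± 0.19, adjusted p = 2.29e-05). Ctsg, cathepsin G, and Ms4a3, a membrane protein of granulocyte and monocyte progenitors, showed the same order, with Ctsg at 221 and 210.1 against 41.2 and 25.7 FPKM and Ms4a3 at 247 and 227 against 39.4 and 26.5. All 8 primary granule genes listed were tested: 6 were lower, 1 was higher and 1 was not called, with a median of -2.73. The higher one was Rab44, a large Rab GTPase, at 37.6 and 40.3 against 130.2 and 144. Ctsc, the protease that activates the granule serine proteases, was at 541 and 539 in M-MDSCs and 375 and 365 in PMN-MDSCs and stayed under the fold limit.

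Secondary and tertiary granule genes were higher in PMN-MDSCs. All 15 listed were tested, 14 were higher and none lower, and the median was 2.36. Mmp9, gelatinase B (chr2:164940780-164955850), was at 7.27 and 10.4 FPKM in M-MDSCs and 978 and 1144 in PMN-MDSCs, the largest increase of any gene tested (6.77 ± 0.15, adjusted p = 4.48e-07 in limma). Ltf, lactoferrin, was at 73.3 and 102 against 693 and 760.0. Lcn2, the siderophore-binding lipocalin, was at 412 and 446 against 2096 and 2322. These genes were present in M-MDSCs as well, Ngp for example at 470.1 and 544, so the subsets differed in level rather than in detection. The collagenase Mmp8 was at 117 and 107 against 609 and 733, and Cd177, a neutrophil surface glycoprotein, at 25.7 and 37.00 against 268 and 301. Chil3, a chitinase-like protein also made by macrophages, differed least of those called (1333 and 1226 against 1969 and 1995, 0.63). Its call was lost without the second M-MDSC library (0.57) and after rescaling to an equal sum. Hp, haptoglobin, was the 1 member not called, at 430.4 and 428 against 442 and 421.

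**Figure D3:**
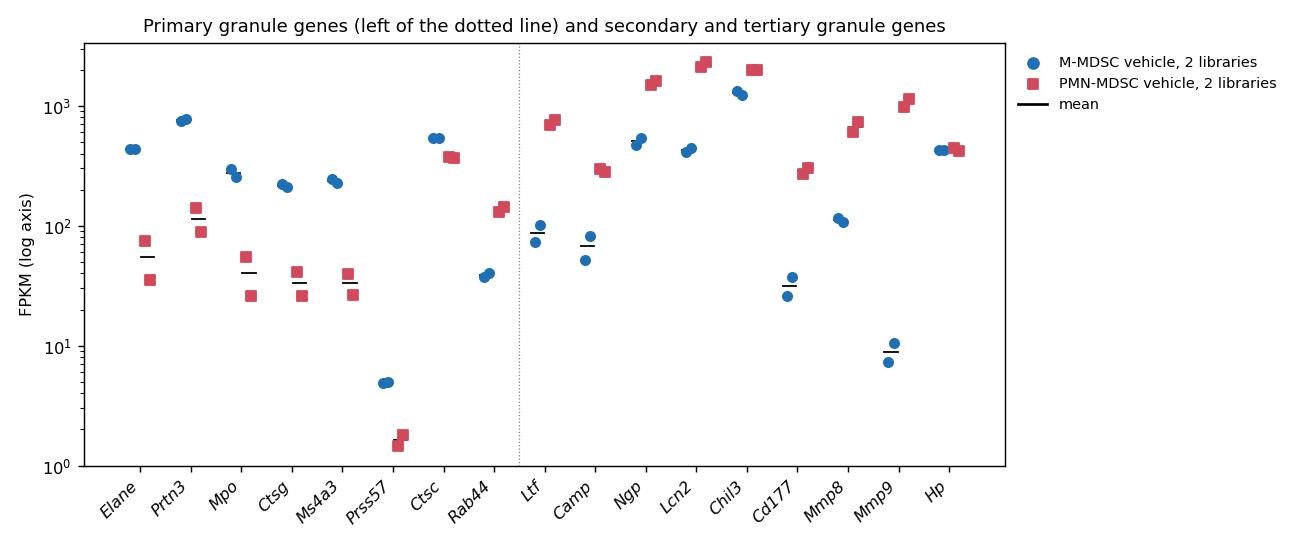
FPKM on a log axis of the 8 primary granule genes (left of the dotted line) and 9 of the 15 secondary and tertiary granule genes; blue circles are the 2 M-MDSC and red squares the 2 PMN-MDSC vehicle libraries, and black lines are means. The primary granule genes lie higher in M-MDSCs except Rab44, which lies higher in PMN-MDSCs, and the secondary and tertiary granule genes shown lie higher in PMN-MDSCs except Hp, whose subsets overlap.

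The sequences before the start sites of some granule genes are shown because these 2 groups of genes differed in opposite directions. They are RefSeq sequences of GRCm38.p6, the build of mm10, 5′ to 3′ on the gene's strand, from 250 bases before the RefSeq start up to the first base of an annotated GENCODE exon of the gene. Capitals mark matches on either strand to AGGAAGT, a form of the PU.1 motif, or to TTGCNNAA, a form of the C/EBP motif, and the marked matches do not overlap each other. Only genes with a marked match are printed. Ms4a3 and Camp, which held neither motif form, are left out. Ctsc and S100a9 each held a match and are also not printed, and Lcn2 had no stretch to print. The stretches therefore do not show how common the matches were. The primary granule genes follow.
Elane (chr10:79886062-79886246, plus strand): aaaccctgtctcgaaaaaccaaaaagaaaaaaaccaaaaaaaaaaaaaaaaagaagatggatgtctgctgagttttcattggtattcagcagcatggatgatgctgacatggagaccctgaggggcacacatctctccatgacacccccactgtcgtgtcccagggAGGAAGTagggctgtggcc
Prtn3 (chr10:79879417-79879613, plus strand): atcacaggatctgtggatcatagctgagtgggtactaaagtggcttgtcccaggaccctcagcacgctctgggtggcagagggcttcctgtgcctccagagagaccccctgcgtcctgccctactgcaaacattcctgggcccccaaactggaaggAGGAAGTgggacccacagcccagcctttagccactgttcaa
Mpo (chr11:87793534-87793580, plus strand): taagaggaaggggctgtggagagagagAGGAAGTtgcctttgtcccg
Ctsg (chr14:56102575-56102824, minus strand): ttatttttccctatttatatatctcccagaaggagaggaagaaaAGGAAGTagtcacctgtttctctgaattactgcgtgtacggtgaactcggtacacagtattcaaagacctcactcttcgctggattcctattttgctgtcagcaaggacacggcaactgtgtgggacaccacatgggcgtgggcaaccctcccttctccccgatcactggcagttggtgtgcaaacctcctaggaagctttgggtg
The secondary and tertiary granule genes follow.
Ltf (chr9:111019042-111019270, plus strand): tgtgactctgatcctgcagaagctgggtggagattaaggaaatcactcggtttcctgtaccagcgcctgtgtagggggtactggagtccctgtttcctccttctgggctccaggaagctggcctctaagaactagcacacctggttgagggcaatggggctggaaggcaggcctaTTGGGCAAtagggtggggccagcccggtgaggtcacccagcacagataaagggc
Ngp (chr9:110419558-110419746, plus strand): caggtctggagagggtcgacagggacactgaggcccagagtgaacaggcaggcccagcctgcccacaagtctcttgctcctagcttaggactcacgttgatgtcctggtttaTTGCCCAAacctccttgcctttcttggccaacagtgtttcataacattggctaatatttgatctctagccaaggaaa
Mmp8 (chr9:7558179-7558428, plus strand): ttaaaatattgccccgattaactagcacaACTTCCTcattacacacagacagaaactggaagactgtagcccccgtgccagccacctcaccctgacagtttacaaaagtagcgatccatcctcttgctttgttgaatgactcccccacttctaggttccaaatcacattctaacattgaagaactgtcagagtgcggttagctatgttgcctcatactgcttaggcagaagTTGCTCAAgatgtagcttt

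Of the 8 primary granule genes, 6 had a sequence in the RefSeq table, and 5 of these held AGGAAGT within 250 bases before the start. They were Elane, Prtn3, Mpo, Ctsg and Ctsc. None of the 6 held TTGCNNAA. Among 13 secondary and tertiary granule genes with a sequence, 4 held AGGAAGT and 6 held TTGCNNAA. Over all 27025 genes of the table the shares were 8.8% and 10.8%, and over the 8307 tested genes with a sequence 9.47% and 9.11%. AGGAAGT was found for 12.1% of the genes called higher in PMN-MDSCs and 9.53% of those called lower. TTGCNNAA was found for 11.5% and 9.25%. The E2F motif form TTCCCGC was found for 5.31% of the genes called higher and 11.1% of those called lower, against 8.38% of tested genes. TTTGAA, a form of the CHR element of cell cycle genes, was found for 12.7% and 15.3%, against 12.7% of tested genes. Of 26 cell cycle genes with a sequence, 2 (7.69%) held TTCCCGC and 7 (26.9%) held TTTGAA. A match describes the letters only.

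Genes of neutrophil identity and maturation were higher as a group. Of 30 listed genes 28 were tested, 25 were higher, none was lower and the median was 2.56, beside -0.02 for all tested genes. Csf3r, the receptor for G-CSF, was at 8.75 and 10.5 FPKM in M-MDSCs and 214 and 237 in PMN-MDSCs (4.42 ± 0.102, adjusted p = 4.48e-07 in limma). Retnlg, a resistin-like protein of neutrophils, was at 1.64 and 5.14 against 287 and 412. Asprv1, an aspartic protease reported in neutrophils, was at 1.22 and 1.94 against 59.7 and 63.05. All 3 were low in both M-MDSC libraries. The formyl peptide receptor Fpr1 was at 35.3 and 37.2 against 287 and 327, the histone-citrullinating enzyme Padi4 at 28.1 and 31.8 against 167 and 184, and the C-type lectin Clec4d at 41.8 and 38.4 against 256 and 289. The stefin Stfa2l1 was at 44.00 and 31.4 against 529 and 891, and it belongs to a cluster of near-identical copies that can share reads. The members not called included Ifitm1, at 491 and 519.8 in M-MDSCs and 451 and 389 in PMN-MDSCs.

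The other genes with the largest increases were mixed in function. Csf1, the growth factor of macrophages, was at 3.16 and 3.41 FPKM in M-MDSCs and 91.7 and 87.9 in PMN-MDSCs. Car4, a membrane-bound carbonic anhydrase, was at 11.8 and 12.03 against 235 and 270.0. Slfn1 and Slfn4 encode schlafens and Gstt1 a glutathione transferase; their differences were 4.41, 4.34 and 4.29. Ear6, an eosinophil-associated ribonuclease, was at 8.03 and 12.1 against 201 and 228, while its paralog Ear2 was lower (137 and 174 against 75.9 and 80.9), and reads of this family can be split between copies. Mmp25, a membrane-anchored protease of neutrophils, was at 1.02 and 0.877 against 32.6 and 43.2. The short RNAs Mir1668 and Snora24 were listed at 0 in both M-MDSC libraries, Mir1668 at 68.3 and 34.7 and Snora24 at 16.6 and 19.8 in PMN-MDSCs. They overlap exons of Adgre5 and Snhg8 on the same strand, and short transcripts receive large FPKM values from few reads.

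The genes with the largest decreases, beside those of primary granules, included several for secreted proteins. Igfbp4, which binds insulin-like growth factors, was at 43.8 and 43.4 FPKM in M-MDSCs and 7.66 and 6.82 in PMN-MDSCs. Plac8, a cysteine-rich protein of myeloid progenitors, was at 444 and 419.8 against 98.3 and 72.7. F13a1, the coagulation factor XIII chain made by monocytes, was at 29.1 and 19.9 against 4.77 and 3.24. All 3 were without overlap, which the rule for naming these genes required. The differences were -2.103 for Serpinf1, -2.07 for the cyclophilin Ppic, -2.34 for BC035044 and -2.21 for the readthrough transcript Synj2bp-cox16. Of the short RNAs, Snora70 was listed at 14.9 and 30.9 and Bc1 at 9.36 and 9.71 in M-MDSCs, both at 0 in the 2 PMN-MDSC libraries, and Rmrp at 17.8 and 23.5 against 7.004 and 0.

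Chemokine receptors divided the subsets further. Of 22 receptor genes listed, 14 were under 1 FPKM in all 4 libraries and all 8 tested were called, 6 higher and 2 lower. Ccr1, a receptor for CCL3 and CCL5, was at 77.9 and 79.3 FPKM in M-MDSCs and 206 and 229.8 in PMN-MDSCs. Ccrl2, an atypical receptor, was at 3.35 and 2.595 against 25.96 and 24.1, and Ccr7, which guides cells to lymph nodes, at 1.99 and 2.46 against 9.77 and 8.28. Cxcr4, which retains cells in the marrow, differed less, at 42.99 and 41.3 against 66.3 and 73.8 (0.72), and lost its call after rescaling to an equal sum. Cx3cr1, a receptor of patrolling monocytes, was near the filter limit at 0.375 and 0.671 against 1.299 and 1.400 and passed only through the PMN-MDSC libraries. Its call was lost without the first M-MDSC library (0.49) and after quantile normalization.

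Chemokine ligands were more abundant in PMN-MDSCs: 16 of 29 listed genes were tested, 13 were higher and none lower, with a median of 1.61, and 2 passed only through the PMN-MDSC libraries. Cxcl2, a ligand of CXCR2, was at 7.35 and 7.21 FPKM in M-MDSCs and 165 and 155 in PMN-MDSCs (4.28 ± 0.079, adjusted p = 4.04e-07 in limma). Ccl6, an abundant myeloid chemokine, was at 2014 and 2059 against 8273 and 8539. Ccl3, a ligand of CCR1, was at 105 and 93.9 against 602 and 554. The CXCR2 receptor and its ligand were thus both higher in the same libraries. Ccl2, the ligand of CCR2, was at 31.1 and 33.9 against 92.7 and 81.9, higher in the subset with less Ccr2. Cxcl3, Ccl22 and Ccl4 were higher by 2.98, 2.09 and 2.07.

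Genes of immunosuppressive effectors were mostly higher in PMN-MDSCs. Of 26 listed genes 21 were tested, 13 were higher, 1 was lower and 7 were not called, with a median of 0.79, and 2 passed only through the PMN-MDSC libraries. Arg2, the mitochondrial arginase (chr12:79130777-79156301), was at 4.39 and 3.02 FPKM in M-MDSCs and 67.5 and 76.00 in PMN-MDSCs (3.96 ± 0.15, adjusted p = 2.36e-06 in limma). Arg1, the cytosolic arginase, differed far less, at 18.5 and 21.96 against 32.99 and 37.4 (0.77 ± 0.11). Cd274, which encodes PD-L1, was at 18.2 and 19.9 against 84.7 and 88.9 (2.13 ± 0.082, adjusted p = 2.63e-06). PD-L1 transcript was thus 4.56-fold more abundant in PMN-MDSCs, with no overlap between the subsets. Pdcd1lg2 (PD-L2) was at 0.622 and 0.742 against 8.96 and 10.5. The ectonucleotidases that turn extracellular ATP into adenosine were both higher: Entpd1 (CD39) was at 5.71 and 4.62 against 29.4 and 33.9, and Nt5e (CD73) at 0.986 and 0.882 against 18.4 and 25.5. Both were higher in each PMN-MDSC library than in either M-MDSC library. Nt5e and Pdcd1lg2 were the members that passed the filter only through the PMN-MDSC libraries.

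Further members of this list were higher as well. Slc7a11, the cystine transporter, was at 2.93 and 2.65 FPKM in M-MDSCs and 22.2 and 23.3 in PMN-MDSCs. Olr1, the LOX-1 receptor used as a marker of human PMN-MDSCs, was at 1.61 and 1.74 against 15.03 and 15.8. Irg1, the itaconate synthase, was at 5.11 and 5.202 against 22.7 and 20.4. These 3 genes were low in M-MDSCs and did not overlap. Smaller increases were measured for Vegfa (1.21), Lgals3 (0.79), the prostaglandin E synthase Ptges (0.73) and 4632428N05Rik, the older symbol of the checkpoint protein VISTA (1.19). Lgals1, galectin-1, was the member that was lower, at 774 and 825 against 350.1 and 321. Tgfb1, whose product suppresses T cells, was at 178 and 183 in M-MDSCs and 192 and 179 in PMN-MDSCs, a difference of 0.04 ± 0.069. Il4ra and Hmox1 differed by 0.500 and 0.503, under the fold limit, and the arginine transporter Slc7a2 by -0.37. Lgals9, Xdh and Wfdc17 differed by 0.101, 0.14 and 0.097.

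The 8 genes of the NADPH oxidase, which makes the superoxide of the respiratory burst, were all tested. Of these, 5 were higher, none was lower and the median was 0.61, and 3 were higher after rescaling to an equal sum. The cytosolic subunits Ncf1 and Ncf4 and the GTPase Rac2 were higher by 0.79, 1.01 and 1.03, and the membrane subunit Cyba by 0.61. Cybb, the catalytic subunit gp91phox, was at 231 and 216 FPKM in M-MDSCs and 199.7 and 209 in PMN-MDSCs and was not called. Cyba lost its call after rescaling to an equal sum (0.43), and also without the first M-MDSC library (0.51) or the first PMN-MDSC library (0.54).

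Genes of the interleukin-1 family were mostly higher in PMN-MDSCs. Of 18 genes of the interleukin-1 and inflammasome list 17 were tested, 11 were higher, none was lower and the median was 0.87. Il1b was at 6.601 and 7.502 FPKM in M-MDSCs and 133 and 149.9 in PMN-MDSCs (4.14 ± 0.098, adjusted p = 4.58e-07 in limma). Its antagonist Il1rn was at 28.3 and 28.4 against 477 and 530.4, and the decoy receptor Il1r2 at 75.7 and 69.1 against 607 and 719. The cytokine and both of its inhibitors were thus higher in both PMN-MDSC libraries. Il1f9, which encodes IL-36γ, was at 30.1 and 30.9 against 214 and 239.6, and Il1a at 6.93 and 5.099 against 26.3 and 30.7.

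Receptors for growth factors, cytokines, antibodies and microbial products were more abundant in PMN-MDSCs. Among growth factor and cytokine receptors, 26 of 29 were tested, 17 were higher and 1 was lower, with a median of 0.88. Csf2ra and Csf2rb, the chains of the GM-CSF receptor, were higher by 1.34 and 0.77, Il17ra by 1.57, Il13ra1 by 1.91 and Il18rap by 1.74. Kit, the stem cell factor receptor of progenitors and mast cells, was at 3.86 and 3.38 FPKM in M-MDSCs and 16.2 and 16.6 in PMN-MDSCs. Il6st, the shared gp130 signaling chain, was the lower one, at 21.5 and 22.4 against 7.09 and 6.803. Of the 19 Fc and inhibitory receptor genes, all tested, 15 were higher and none lower, with a median of 1.09. Siglece, an inhibitory sialic acid receptor, was at 16.2 and 17.2 against 109 and 116, and Fcgr4, an activating IgG receptor, at 11.9 and 12.3 against 61.6 and 73.4. The signaling adaptors Tyrobp and Fcer1g, which many of these receptors need, were higher by 1.59 and 1.07. Cd33, Lilr4b and the inhibitory IgG receptor Fcgr2b were higher by 2.05, 1.82 and 1.74. Of 17 toll-like receptor genes and co-factors 14 were tested, 8 were higher and none lower, with a median of 0.73. Tlr13, a sensor of bacterial ribosomal RNA, was at 24.4 and 26.1 against 83.6 and 108, and Tlr4, the endotoxin receptor, at 26.3 and 25.1 against 47.9 and 55.8. Tlr6 and Tlr5 were higher by 1.34 and 1.21, the latter from values near the filter limit.

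The list of monocyte and macrophage identity did not separate the subsets in 1 direction. Of 26 genes 24 were tested, 8 were higher in PMN-MDSCs, 7 were lower and 9 were not called, with a median of 0.20, which came to 0.02 after rescaling to an equal sum. After quantile normalization, or without the first PMN-MDSC library, 5 were higher. Csf1r, the M-CSF receptor that defines the monocyte lineage, was at 123 and 123 FPKM in M-MDSCs and 159.9 and 145 in PMN-MDSCs (0.31 ± 0.073, under the fold limit), so it was not lower in the cells sorted as granulocytic. Cd14, the endotoxin co-receptor, was at 23.9 and 28.2 against 122 and 109, and Adgre1, which encodes F4/80, at 38.9 and 41.5 against 88.4 and 86.6. These macrophage genes were higher in PMN-MDSCs and so did not follow the labels. Apoe, C1qc, Cd68 and Mertk were also higher (1.802, 0.83, 0.62 and 0.72), and C1qa, from low values, by 0.74. Without the first PMN-MDSC library Cd68 was at 0.55 and lost its call. The call of Cd68 was also lost after rescaling to an equal sum and after quantile normalization. That of C1qa was lost without the first PMN-MDSC library (0.33) or the second M-MDSC library (0.58). It was also lost without a filter, without the trend, after rescaling to an equal sum and after quantile normalization. Lower, along with F13a1, were Vcan, Ms4a6c and Fn1, genes of classical monocytes and their matrix (-1.73, -1.397 and -0.996), and Mrc1 and Ly86 (-0.698 and -0.69). Vcan was at 63.95 and 56.7 in M-MDSCs and 18.7 and 16.2 in PMN-MDSCs. The M-MDSC libraries in turn held the granule transcripts described above. Whether either sort held cells of the other subset was not tested.

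Genes of MHC class II presentation were higher on balance in PMN-MDSCs. Of 15 genes of the MHC class II list 12 were tested, 7 were higher and 1 was lower, with a median of 0.85. After rescaling to an equal sum 7 were higher and 2 lower, with a median of 0.69. H2-Aa, an alpha chain, was at 24.3 and 20.3 FPKM in M-MDSCs and 80.6 and 59.7 in PMN-MDSCs, and H2-Eb1, a beta chain, at 9.54 and 9.21 against 42.8 and 27.6. The invariant chain Cd74 was at 161 and 148 against 440.0 and 353. The replicates of PMN-MDSCs lay further apart for these genes than those of M-MDSCs, and the groups did not overlap. H2-Ab1 and the regulator Ciita were higher by 1.44 ± 0.19 and 1.099 ± 0.18. Ifi30, the lysosomal thiol reductase, was lower, at 365 and 396 against 187 and 172.

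Transcription factors of the monocyte and granulocyte lineages differed in both directions. Of 42 listed 40 were tested, 22 were higher and 5 were lower, with a median of 0.73. Irf8 and Klf4, which promote monocyte fate, were lower: Irf8 was at 34.5 and 36.6 FPKM in M-MDSCs and 16.5 and 11.2 in PMN-MDSCs, and Klf4 at 53.1 and 54.6 against 17.97 and 17.7. Gfi1, a repressor needed for granulocyte fate, was also lower, at 12.5 and 13.9 against 3.63 and 3.24. Cebpe, which drives secondary granule genes, was higher, at 22.7 and 25.8 against 45.5 and 43.1, as was Cebpb (0.76). Cebpb lost its call after rescaling to an equal sum. Spi1, which encodes PU.1, was at 301 and 322 against 407 and 362 and Cebpa at 27.97 and 26.6 against 20.9 and 17.6, both under the fold limit. The early response factors Egr1, Egr2 and Egr3 were higher by 1.76, 2.63 and 2.48, Klf2 by 2.92 and Maf by 1.58. Tfec and Pparg were lower (-1.05 and -0.59), and Pparg came under the fold limit without the first M-MDSC library (-0.58) or the first PMN-MDSC library (-0.53). Pparg also lost its call after median-of-ratios scaling.

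Cell cycle genes were lower in PMN-MDSCs almost without exception. All 32 listed were tested, 31 were lower and none higher, with a median of -1.45. Rrm2, the ribonucleotide reductase subunit, was at 154 and 158 FPKM in M-MDSCs and 50.8 and 43.5 in PMN-MDSCs (-1.71 ± 0.088, adjusted p = 8e-06 in limma). Mki67, the proliferation marker Ki-67, was at 138 and 117 against 47.04 and 49.3, and Top2a, a topoisomerase of dividing cells, at 156 and 121 against 50.9 and 49.7. The groups did not overlap, and these transcripts were still abundant in the PMN-MDSC libraries. The replicative helicase subunits Mcm2 and Mcm5, cyclin E2 (Ccne2) and the mitotic kinase Aurka were also lower (-1.67, -1.64, -1.67 and -1.63). E2f1 was at 22.7 and 23.2 against 16.4 and 14.2 and did not pass the fold limit.

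Genes of cytosolic ribosomal proteins were mostly lower in PMN-MDSCs. Of 82 tested 60 were lower (73.2%, beside 18% of all tested genes) and 2 higher, with a median of -0.69. The count of lower genes depended on the scaling, with 73 after rescaling to an equal sum and 63 when S100a8 and S100a9 were left out of the sum. It was 58 after median-of-ratios scaling and 27 after quantile normalization (median -0.49). The 2 that were higher were the paralogs Rpl3l (1.48 and 0.119 against 4.03 and 4.83 FPKM) and Rps4l (6.57 and 5.37 against 16.9 and 11.4). Of 77 tested genes of the respiratory chain and ATP synthase 18 were lower (23.4%) and 59 were not called, with a median of -0.41. Of 37 proteasome genes 11 were lower (29.7%) and 26 were not called, with a median of -0.46. Neither list had a gene called higher, and after rescaling to an equal sum 39 and 23 were lower. The 14 housekeeping genes had a median of -0.35, with 2 higher and 6 lower, or none and 7 after the rescaling. Since FPKM is relative, the medians of the 4 lists moved to -0.87, -0.59, -0.64 and -0.53 after rescaling to an equal sum, beside -0.19 for all tested genes.

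**Figure D4:**
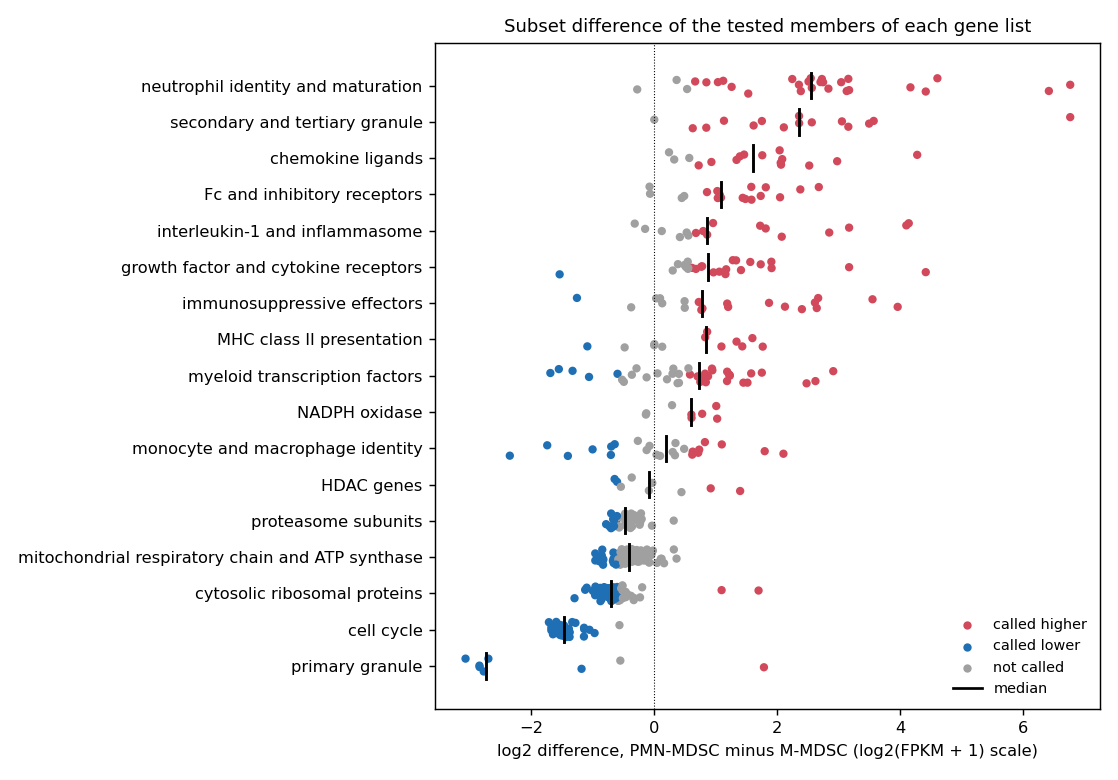
Each point is a tested member of a gene list, placed by its log2 difference of PMN-MDSCs minus M-MDSCs; red points were called higher, blue lower and grey not called, and black bars are medians. The list medians run from 2.56 for neutrophil identity and maturation to -2.73 for primary granule genes, and the monocyte and macrophage list lies across 0.

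Other gene groups differed in part. Of 34 interferon-stimulated genes 27 were tested, 14 were higher and 4 were lower, with a median of 0.63, and 5 passed only through the PMN-MDSC libraries. Without the second PMN-MDSC library 9 were higher, and without the second M-MDSC library 2 were lower. Oasl2, an OAS-like antiviral protein, was at 1.27 and 0.914 against 17.6 and 21.2 FPKM, and Irf7, the regulator of interferon genes, at 1.84 and 1.56 against 12.9 and 12.9. Oas2, Oas3 and Ifi204 were higher by 2.97, 1.804 and 1.95. The abundant Ifitm3 was lower, at 486 and 464 against 311 and 288, as were Ifi203, Bst2 and Ifit2 (-1.16, -0.62 and -0.61). The call of Bst2 was lost without the second M-MDSC library (-0.50) or the second PMN-MDSC library (-0.54). The summed FPKM of the list was therefore lower in PMN-MDSCs, 592 and 572 against 678 and 667 in M-MDSCs, although more members were higher. Of 20 integrins and selectins 19 were tested, 11 were higher and 2 were lower. Itgb2, the partner of CD11b, was at 349 and 366 against 875 and 858. Selp and Itgax were higher by 1.74 and 1.57. Itgb7 and Itga4, which pair for homing to the gut, were lower (-1.301 and -0.81).

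Of 25 survival and death genes 22 were tested, 9 were higher and 1 was lower, with a median of 0.48. Fas, the death receptor, was at 11.8 and 10.7 FPKM in M-MDSCs and 44.8 and 49.8 in PMN-MDSCs, and the anti-apoptotic Bcl2a1b at 189 and 182 against 448 and 494, with the reservation that the Bcl2a1 genes are near-identical copies. Bcl2a1a, Birc3 and the pro-apoptotic Bcl2l11 were higher by 1.42, 1.33 and 1.31, and Bak1 was lower (-0.61). In the glycolysis and hypoxia list 31 of 33 were tested, with a median of -0.02. Of these, 7 were higher (22.6%, beside 18.3% of all tested genes) and 3 lower (9.68%, beside 18%). After rescaling to an equal sum 5 were higher and 6 lower, with a median of -0.21. The glucose transporter Slc2a3 was at 3.75 and 4.81 against 26.6 and 28.7. Pfkfb4, the oxygen sensor Egln3 and Hk3 were higher by 1.72, 1.57 and 0.91. The glycolytic enzymes Pfkm, Tpi1 and Ldha were lower (-1.02, -0.61 and -0.59). Tpi1 and Ldha came under the fold limit without the second PMN-MDSC library (-0.52 and -0.49), and Ldha also without the second M-MDSC library (-0.58). Ldha lost its call after median-of-ratios scaling as well.

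Among 25 tested genes of lysosomal cathepsins and enzymes 11 were higher and 1, Ctsg, was lower, with a median of 0.42. The count of higher genes fell to 6 after rescaling to an equal sum (3 lower, median 0.24) and to 6 after quantile normalization (median 0.37). Cd63, a tetraspanin of granule and lysosome membranes, was at 89.1 and 90.8 FPKM in M-MDSCs and 678 and 653 in PMN-MDSCs, and the abundant Ctsd at 1570.1 and 1683 against 4452 and 4053. Lgmn, Lipa and Ctse were higher by 1.42, 1.01 and 1.57. Of 21 tested lipid uptake and efflux genes 6 were higher (28.6%, beside 18.3% of all tested genes) and 3 lower (14.3%, beside 18%). Their median of 0.11 became -0.06 after rescaling to an equal sum, with 5 lower. Gpnmb, a glycoprotein of lipid-laden macrophages, was at 126 and 117 against 568 and 452, while Lpl, lipoprotein lipase, was lower, at 549.8 and 549 against 286 and 281. Scarb1 and Fabp5 were also lower (-0.89 and -0.79), and Hilpda and Apoc2 higher (0.87 and 0.84). Of 22 tested matrix and protease genes 12 were higher and 2 lower, with a median of 0.69. Timp2, Adam8 and Ecm1 were higher by 2.59, 1.76 and 1.49.

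The HDAC genes, which include the targets of the drugs used in the treated arms, were read in the vehicle libraries. Of 11 HDAC genes 9 were tested, with a median of -0.08. Of these, 2 were higher and 2 lower, 22.2% each, beside 18.3% and 18% of all tested genes. Hdac1 was at 86.3 and 87.8 FPKM in M-MDSCs and 56.4 and 57.95 in PMN-MDSCs, and Hdac2 at 39.6 and 38.3 against 23.7 and 25.7, both lower in PMN-MDSCs (-0.598 ± 0.069 and -0.64 ± 0.084). Hdac3 was at 33.00 and 33.3 against 26.1 and 25.2 (-0.36 ± 0.079) and did not reach the fold limit. Without the first PMN-MDSC library, Hdac1 and Hdac2 were also just under it (-0.58 each). The transcripts of these class I enzymes were present in all 4 libraries. Hdac7, of class IIa, was higher, at 3.39 and 4.399 against 12.6 and 11.2, as was Hdac10 (0.92). The differences of Hdac4, Hdac5, Hdac6 and Hdac8 were 0.45, -0.08, -0.54 and -0.03. Of 11 genes in a list of NEDD4 family ligases and TRIM genes 9 were tested, and 1 was higher and 1 lower (11.1% each). Nedd4, a ubiquitin ligase, was lower, at 11.9 and 9.03 against 5.504 and 5.53. Its relative Itch was higher, at 18.9 and 17.1 against 26.5 and 31.3. The call of Itch was lost without the second M-MDSC library (0.58) or the second PMN-MDSC library (0.54), and after rescaling to an equal sum. The other 7 were not called and ranged from -0.42 (Trim32) to 0.58 (Wwp1), with Smurf2, Wwp2, Trim6, Smurf1 and Nedd4l at 0.57, 0.39, 0.38, 0.33 and -0.01.

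Markers of other cell types that a sort could carry over were mostly near 0, and those detected were often higher in PMN-MDSCs. Of 20 hepatocyte and hepatoma genes 14, including Alb, were at 0 in all 4 libraries and 17 under 1 FPKM. Trf was the abundant exception (58.8 and 62.7 against 161 and 155). Of 19 lymphocyte and NK genes 16 were under 1 FPKM, Cd3e among those at 0, and the summed level was 12.8 to 16.8 in M-MDSCs and 6.10 to 9.37 in PMN-MDSCs, with Nkg7 and Cd79b the most abundant. Mast cell and basophil genes summed to 18.4 and 23.5 in M-MDSCs against 85.1 and 111 in PMN-MDSCs. Of the 7 genes 6 were called higher, but 3 of the 7 passed the filter only through the PMN-MDSC libraries, and without the second PMN-MDSC library 3 of 4 tested were higher. Prss34 and Mcpt8, basophil proteases, led this list (Prss34 at 3.66 and 5.29 against 30.1 and 40.3, Mcpt8 at 3.44 and 5.78 against 27.4 and 36.9). Eosinophil genes summed to 161 and 197 against 342 and 378, with 4 of 6 tested higher and 1 lower. The lower one was Ear2, the most abundant (-0.97). Ear6 (4.31), Prg2 (1.92) and Siglecf (3.15) were higher, and reads of Ear2 and Ear6 can be split between copies. Sums for endothelial and fibroblast genes (12.02 to 14.2 against 36.1 and 41.6, led by Pecam1 and Acta2), erythroid and platelet genes (9.54 to 9.62 against 19.8 and 36.5, led by Pf4) and Kupffer cell genes (9.23 to 11.5 against 17.4 and 22.2, led by Marco) were small. Dendritic cell genes summed to 98.3 and 116 against 127 and 141, with 5 of 7 tested higher, of which 2 passed only through the PMN-MDSC libraries, and 3 of 5 tested with either PMN-MDSC library left out. Bst2, the most abundant of the dendritic cell genes, was lower (-0.62). The part of cells of these other types in the differences was not tested.

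The same subset difference was measured again in the treated libraries, which share no sample with the vehicle comparison. Of the 1971 genes called higher in vehicle, 1645 (83.5%) were called higher between the MS-275 subsets, which is 61.3% of the 2685 called there. Of the 1939 lower genes, 1595 (82.3%) were called lower, 58.1% of 2743. In the CXD101 libraries 1675 of the higher genes (85.0%) and 1655 of the lower genes (85.4%) were called in the same direction, 64.8% of 2583 and 60.3% of 2744. The background shares of tested genes called were 24.9% higher and 25.5% lower with MS-275, and 24% and 25.5% with CXD101. Opposite calls were few: 16 of the higher and 5 of the lower genes with MS-275, and 13 and 5 with CXD101. Elane, Mpo, Ccr2, Cxcr2 and Mmp9 kept their direction in both arms, with MS-275 differences of -3.75, -4.58, -2.03, 3.88 and 7.22. The difference of Ltf was 3.06 in vehicle, 7.02 with MS-275 and 5.82 with CXD101. That of Ly6c2 was -1.46, -0.62 and -0.45. Whether these differed from vehicle was not tested.

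**Figure D5:**
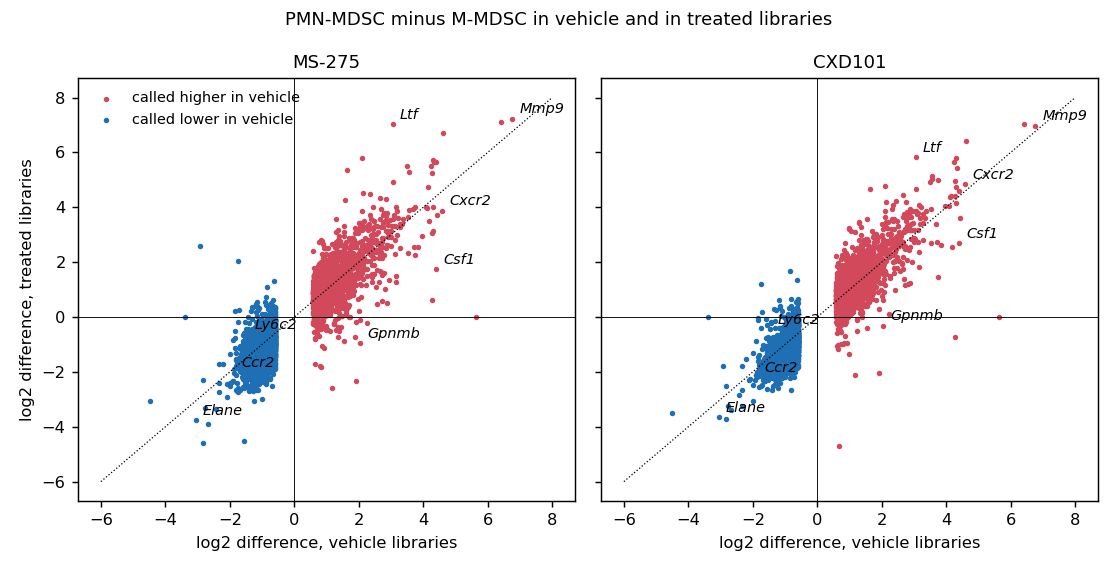
Each point is a gene called between the vehicle subsets, placed by its log2 difference of PMN-MDSCs minus M-MDSCs in vehicle (x axis) and in the MS-275 (left) or CXD101 (right) libraries (y axis); red genes were called higher and blue lower in vehicle, and the dotted line marks equal differences. Most points keep their sign; Mmp9 lies at the upper right and Gpnmb below 0 in both panels.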

How the data were processed

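RNA was extracted from the sorted cells, and stranded poly(A) libraries were sequenced with 101-base single-end reads. The submitters' processing notes name TopHat2 2.1.1, Bowtie2 2.2.8, SAMtools 0.1.18, Cuffdiff 2.2.1 and mm10, while the annotation and the strand setting are not given in the sources used here. The authors deposited FPKM values, 1 table per library. No counts were used, and depth was read from the one-read steps of values under 0.15 FPKM in single-transcript genes of at least 1000 bp (GENCODE M21 lengths). If the authors scaled the libraries beforehand, this is the scaled depth, and no interval was derived from it.

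limma 3.58.1 (R 4.3.3) was run on log2(FPKM + 1) of the 4 vehicle libraries, with 1 mean per group, eBayes with a trend, and Benjamini-Hochberg adjustment over all 10764 tested genes. The procedure was tested on simulated data. The same fit was run on the MS-275 and CXD101 libraries. Python 3.11.15 with pandas 2.3.3, numpy 2.4.6 and matplotlib 3.10.9 was used otherwise.

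The comparison, its markers and the gene lists were chosen with earlier results of these data known. Named were the markers and sort antigens, the 15 largest increases and 15 largest decreases among called genes that averaged 5 FPKM or more in the higher subset without overlap, up to 5 called genes per list and direction, and every tested chemokine receptor, effector, HDAC and NEDD4 family gene. A few genes that this rule gives are counted but not reported here. Other named genes were chosen after their values were seen. Of other-cell-type lists the most abundant members are given. Listed symbols were matched to the files directly or through older symbols. The alternatives were another pseudocount, other filters and fold limits, 4 other scalings, a fit without trend, a fit over all 12 libraries, a replicate block, and leaving out each library in turn.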

Additional observations from a re-analysis of the deposited data

Results flagged for a closer look

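Some named genes had subset differences of opposite sign in the vehicle and the treated libraries, with every PMN-MDSC library on one side of both M-MDSC libraries in vehicle and on the other side under treatment. Above and below describe the library values and not calls, and levels are FPKM of the M-MDSC libraries against the PMN-MDSC libraries. For each gene the difference between vehicle and treatment was not tested. The search covered only genes that the naming rule gives or the text names. How common such opposite separations are among all tested genes is not given here. Some treated differences were small, such as those of Nedd4 and Ifitm3 with CXD101.

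Gpnmb was higher in PMN-MDSCs in vehicle (126 and 117 FPKM in M-MDSCs, 568 and 452 in PMN-MDSCs) and below M-MDSCs with MS-275 (152 and 152 against 72.9 and 83.6, a log2 difference of -0.95) and with CXD101 (137 and 131 against 119.9 and 95.6, -0.32). S100a4 was lower in PMN-MDSCs in vehicle (1054 and 1123 against 603 and 574) and above M-MDSCs with MS-275 (501 and 562 against 851 and 923, 0.74). Itgb7 was lower in vehicle (41.6 and 50.5 against 19.4 and 16.7) and above M-MDSCs with MS-275 (46.3 and 44.1 against 55.9 and 60.8, 0.36). Pparg was lower in vehicle (36.8 and 36.4 against 22.97 and 24.99) and above M-MDSCs with MS-275 (29.8 and 27.5 against 35.6 and 37.2, 0.33). C1qc was higher in vehicle (5.48 and 5.01 against 10.4 and 9.77) and below M-MDSCs with MS-275 (0.506 and 1.02 against 0.153 and 0.437, -0.44). Cx3cr1, at low values, was higher in vehicle (0.375 and 0.671 against 1.299 and 1.400) and below M-MDSCs with MS-275 (0.704 and 0.399 against 0.295 and 0.244, -0.28). The short RNA Rmrp was lower in vehicle (17.8 and 23.5 against 7.004 and 0) and above M-MDSCs with MS-275 (10.7 and 0 against 35.8 and 10.8, 2.61). Ifitm3 was lower in vehicle (486 and 464 against 311 and 288) and above M-MDSCs with CXD101 (523 and 463 against 558 and 529, 0.14). Nedd4 was lower in vehicle (11.9 and 9.03 against 5.504 and 5.53) and above M-MDSCs with CXD101 (20.3 and 19.3 against 20.8 and 20.7, 0.065).

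The same held for genes outside the naming rule. Cybb was not called in vehicle (231 and 216 in M-MDSCs, 199.7 and 209 in PMN-MDSCs) and was above M-MDSCs with MS-275 (194 and 184 against 492 and 481, 1.36) and CXD101 (1.37). Csf1r was above M-MDSCs in vehicle (123 and 123 against 159.9 and 145) and below M-MDSCs with MS-275 (97.1 and 94.9 against 59.9 and 64.1, -0.62) and CXD101 (-0.52). Ifitm1 was below M-MDSCs in vehicle (491 and 519.8 against 451 and 389) and above M-MDSCs with MS-275 (929 and 1004 against 1779 and 2071, 0.99) and CXD101 (1.03). The eosinophil granule gene Prg2 was higher in vehicle (10.6 and 6.56 against 34.5 and 34.7) and below M-MDSCs with MS-275 (113 and 133 against 19.3 and 28.3, -2.34) and CXD101 (-2.04). The macrophage genes Marco and Mertk were higher in vehicle (0.87 and 0.72) and below M-MDSCs with MS-275 (-1.05 and -0.43) and CXD101 (-0.68 and -0.99). Gata2, at low values, was higher in vehicle (0.188 and 0.327 against 2.29 and 2.09) and below M-MDSCs with MS-275 (-0.71). Cd34 was higher in vehicle (1.56 and 0.790 against 2.81 and 2.56) and below M-MDSCs with MS-275 (-1.78) and CXD101 (-0.97). Pf4 and Rps4l were higher in vehicle (1.34 and 1.101) and below M-MDSCs with MS-275 (-0.35 and -0.498).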

How the results depend on the processing

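Counts of called genes stayed within 1.5 times of 1971 higher and 1939 lower under every alternative run except a fold limit of 2, which left 945 higher and 598 lower, and 1212 and 1294 vehicle calls also called with MS-275 and CXD101. Leaving out 1 library at a time gave 1702 to 1997 higher and 1822 to 2076 lower, the lowest count of higher genes without the second PMN-MDSC library. Of 219 called genes that the naming rule gives or the text names, 172 were past a fold of 2 and 47 were not. Under the other 14 alternatives none changed sign. Of the 195 that had a value in each of these, 180 kept the call throughout, and of the 24 that were filtered out in at least 1, 20 kept it wherever they had a value. Of 27 such genes not called, 7 were called under at least 1 alternative. Small differences that were not called changed sign. After rescaling to an equal sum they were Tgfb1 (-0.144), Lgals9 (-0.0794), Xdh (-0.0388), Wfdc17 (-0.0845) and Hp (-0.175, or -0.0186 when S100a8 and S100a9 were left out of the sum), and after quantile normalization Tgfb1 (-0.0550) and Hp (-0.0723). Leaving out 1 library at a time, Tgfb1 ranged from -0.0157 to 0.0902, Wfdc17 from -0.0406 to 0.235, Hp from -0.0267 to 0.0405, Hdac5 from -0.198 to 0.0364, Hdac8 from -0.0964 to 0.0447 and Nedd4l from -0.112 to 0.0859. The cause was not tested. Depth limits genes near 1 FPKM.

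Replicate numbers are shared by the labels, but nothing says that they mark a mouse or a day. Same-numbered libraries deviated from their group means with a correlation of -0.14 over genes, and with only 2 pairs the numbers were not shown to pair the samples. With the replicate number as a block, 1988 genes were higher and 1953 lower. The opposite pairing, added after seeing the data, gave 1969 and 1945.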

Other observations

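Metabolic genes outside the lists above also separated the subsets, in gene lists chosen after values of these data were seen, so their counts are a description. All 11 genes of serine and one-carbon synthesis were tested and were lower in PMN-MDSCs, with a median of -1.63. Phgdh, which commits glycolytic carbon to serine, was at 172 and 185 FPKM in M-MDSCs and 54.04 and 35.2 in PMN-MDSCs. Psat1, the next enzyme, was at 135 and 135 against 40.05 and 35.2, and Shmt2, the mitochondrial enzyme that passes a carbon from serine to folate, at 102 and 116 against 33.97 and 29.97. Each of these was lower in both PMN-MDSC libraries. Of 20 genes of cholesterol and fatty acid synthesis 14 were lower and none higher, with a median of -0.77. The desaturase Fads2 was at 91.6 and 79.5 against 25.5 and 18.1 and the desaturase Scd1 at 36.4 and 31.96 against 9.73 and 8.205.

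Of 14 progenitor genes 11 were tested, 6 were lower and 3 higher, with a median of -0.76, and 2 passed the filter only through the M-MDSC and 1 only through the PMN-MDSC libraries. Myb, a transcription factor of hematopoietic progenitors, was at 12.4 and 11.1 FPKM in M-MDSCs and 2.75 and 2.15 in PMN-MDSCs, Tox at 6.43 and 6.26 against 1.19 and 0.916, and Hmgb3 at 48.2 and 48.8 against 13.2 and 15.5. Myb, Tox and Hmgb3 were lower without overlap. The 3 higher members were Kit (1.91), Gata2 (1.35) and Cd34 (0.78), and Cd34 was not called without the second M-MDSC library (0.53).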
